A study of Mus musculus with 6 samples.

Results

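The 38 genes described here serve sterol synthesis, fatty acid synthesis and lipid transport, and they were measured in brain endothelial cells of mouse embryos that did or did not overexpress Axin1. They were taken by symbol from a list that groups them by known role: 8 genes of lipid transport, 13 of sterol synthesis, 5 of sterol regulation and 12 of fatty acid synthesis. All 38 have an entry among the 22958 gene entries of each deposited table, and 36 of them were among the 12661 genes with enough reads to be tested. Axin1 holds together the protein complex through which beta-catenin is degraded, so its overexpression is used to lower Wnt/beta-catenin signalling, the subject named in the title of the study.

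The tested group held 3 libraries from CD31+ brain cells of E11.5 embryos with the label Cdhrs5CreERT2:R26Axin1IL+/-, in which Axin1 was overexpressed. The control group held 3 libraries from CD31+ brain cells of E11.5 embryos labelled Cdhrs5CreERT2:R26Axin1IL-/-, with wildtype Axin1 expression. CD31 is the product of Pecam1, an adhesion molecule of endothelial cells that some blood cells also carry. In both groups the mother had been given tamoxifen at E9.5, both labels name the tamoxifen-inducible Cre line, and the strain was C57BL/6 x 129/Sv. The labels describe the libraries as biological replicates and state no litters, sexes or pooling. The titles share the numbers 1813 and 1814 between the groups, and no label says that they mark litters. Each p-value below sets the difference between the groups against the spread between libraries, which are taken as independent unless a block is named. RNA was polyadenylated and amplified with a kit for very small amounts of input.

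Sterol synthesis starts from acetyl-CoA and runs through the mevalonate steps to farnesyl diphosphate, then through squalene and lanosterol to cholesterol. SREBP-2, the product of Srebf2, turns these enzymes on when membrane sterol is low, SREBP-1 from Srebf1 acts more on the fatty acid enzymes, and the Insig proteins hold the precursors of both in the endoplasmic reticulum when sterol is plentiful. Endothelial cells of the brain carry lipid from the blood to the tissue. Mfsd2a, a transporter of lysophosphatidylcholine that carries the fatty acid DHA, is known in these cells both for that transport and for keeping transcytosis low.

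Promoter sequences are shown for 5 genes: the pair of lipid transport genes whose Axin1 values lay below every control, a pair of mevalonate enzymes whose Axin1 and control values did not overlap, and the gene with the one match to a sterol regulatory element. They come from RefSeq on build GRCm38.p6, run 5′ to 3′ on the strand of the gene, and span 250 bases before to 50 after the start. Capitals mark CCAAT, the box bound by the factor NF-Y, on either strand (ATTGG on the printed strand where the box lies on the other). In the Hmgcs1 sequence they also mark the sterol regulatory element core TCACNCCAC.
Pltp, chr2:164857659-164857958, minus strand: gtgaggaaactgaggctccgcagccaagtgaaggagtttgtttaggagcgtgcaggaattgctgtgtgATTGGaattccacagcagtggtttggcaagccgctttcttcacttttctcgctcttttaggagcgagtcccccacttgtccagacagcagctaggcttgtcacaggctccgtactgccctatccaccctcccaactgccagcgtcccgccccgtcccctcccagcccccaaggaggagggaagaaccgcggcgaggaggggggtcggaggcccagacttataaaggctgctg
Mfsd2a, chr4:122961139-122961438, minus strand: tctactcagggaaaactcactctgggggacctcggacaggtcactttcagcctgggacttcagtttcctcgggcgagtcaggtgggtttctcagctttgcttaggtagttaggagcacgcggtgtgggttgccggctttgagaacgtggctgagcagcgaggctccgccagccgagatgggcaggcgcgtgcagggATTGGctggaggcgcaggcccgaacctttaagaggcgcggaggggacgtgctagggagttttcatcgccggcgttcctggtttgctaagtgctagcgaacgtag
Mvk, chr5:114444019-114444318, plus strand: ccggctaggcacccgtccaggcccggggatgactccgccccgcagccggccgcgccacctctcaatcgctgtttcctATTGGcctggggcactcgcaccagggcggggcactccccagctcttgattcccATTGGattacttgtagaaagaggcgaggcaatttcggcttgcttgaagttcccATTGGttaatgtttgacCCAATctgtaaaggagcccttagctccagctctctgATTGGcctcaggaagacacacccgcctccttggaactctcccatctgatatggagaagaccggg
Mvd, chr8:122443373-122443672, minus strand: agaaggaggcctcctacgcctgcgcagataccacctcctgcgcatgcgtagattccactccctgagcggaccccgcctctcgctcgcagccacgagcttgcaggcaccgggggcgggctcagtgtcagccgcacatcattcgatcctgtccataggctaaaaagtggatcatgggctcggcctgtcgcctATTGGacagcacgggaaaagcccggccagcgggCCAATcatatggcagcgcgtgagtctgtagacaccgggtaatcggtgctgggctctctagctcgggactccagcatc
Hmgcs1, chr13:119690101-119690400, plus strand: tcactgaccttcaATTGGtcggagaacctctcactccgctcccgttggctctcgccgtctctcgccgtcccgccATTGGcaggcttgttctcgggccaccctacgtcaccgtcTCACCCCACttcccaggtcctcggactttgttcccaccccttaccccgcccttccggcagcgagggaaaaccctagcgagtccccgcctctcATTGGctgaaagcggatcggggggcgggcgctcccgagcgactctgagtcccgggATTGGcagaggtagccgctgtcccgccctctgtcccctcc

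Promoters were used for 27 of the 38 genes, 37 in all, and none was used for Lpl, Scarb1, Fabp4, Fabp5, Sqle, Fdft1, Fdps, Stard4, Scd1, Scd2 and Fads1. Any promoter of the 38 genes on 1 chromosome was left out, while the shares over all promoters include that chromosome. CCAAT on either strand was present in 10 of 13 promoters of sterol synthesis genes (76.9%), 5 of 8 of the regulators (62.5%), 5 of 10 of fatty acid genes (50%) and 3 of 6 of transport genes (50%). The share among all 32851 promoters of the same length was 37.4%. Each of the 10 sterol synthesis genes with a promoter in use had CCAAT in at least 1 of its promoters, against 41.1% of all 27025 genes. Mvk held 5 such boxes, Hmgcs1 held 4, and Mvd held 2. The sterol element core TCACNCCAC was found in the promoter of Hmgcs1 alone, as TCACCCCAC at positions -137 to -129 from the start. That is 1 of 37 promoters (2.7%), against 1.24% of all promoters. The E-box CACGTG lay in promoters of Dhcr7, Hsd17b7, Insig1 and Elovl5, which is 4 of 37 (10.8%) against 7.15% of all. ATCAAAG, a core bound by the TCF/LEF factors of the Wnt pathway and added after the other motifs, was in none of the 37 promoters, against 3.73% of all. These counts describe letters within a short window and say nothing about binding. CCAAT, TCACNCCAC and ATCAAAG share no overlapping match in the printed sequences.

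Each library held between 10772492 and 14234409 reads in genes. Axin1 itself checked the labels: it lay at 79.7, 62.1 and 66.1 CPM (reads scaled to a common library size with TMM) in the Axin1 libraries and at 25.0, 17.5 and 20.8 CPM in the controls, a log2 fold change of 1.72 with a standard error (SE) of 0.17 and an edgeR adjusted p of 0.0103. Over all genes, the quasi-likelihood test of edgeR, adjusted by Benjamini-Hochberg, called 107 of 12661 genes at an adjusted p under 0.05, which is 0.845%. An unadjusted p under 0.05 was reached by 17.2% of genes. In 23.8% of genes the values of the 3 Axin1 libraries did not overlap those of the 3 controls. The sort marker Pecam1 lay between 1181 and 1454 CPM in every library, and the sum of 12 endothelial markers at 9864, 9061 and 8514 CPM in Axin1 libraries, against 8776, 8690 and 9035 CPM in controls. All 15 macrophage markers had enough reads to be tested as well, with sums of 636, 2229 and 4039 CPM in Axin1 libraries 1, 2 and 3, against 1179, 1891 and 1319 CPM in controls 1, 2 and 3. The libraries were made from many cells each, so fewer cells of a type and less RNA per cell cannot be told apart in any value here.

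Of the 36 tested lipid genes, 1 passed the adjusted threshold: Pltp, which fell in Axin1 cells (2.78% of the list). At an unadjusted p under 0.05 there were 9, of which 8 were lower and 1 higher (25.0% against 17.2% of all genes). The groups did not overlap for 9 genes, 25.0% against 23.8% of all genes. For tested genes with a mean of at least 10 CPM, the shares were 20.9% at an unadjusted p under 0.05 and 27.3% without overlap. Fold changes were positive for 18 genes and negative for 18, and their median log2 was 0.00, against 0.02 over all tested genes. The median size of the log2 change, regardless of sign, was 0.24 both for the list and for all tested genes. Among these 36 genes the size of the change varied with the role, a difference that was not tested. The genes were chosen with earlier results of these data known, so their sizes are no independent support for such a difference. Transport genes also had a median SE of 0.56, against 0.20 over all tested genes. The part of the spread between libraries in the sizes was not tested. In lipid transport, 4 of 7 tested genes had a log2 change above 1 in size, against 6.25% of all tested genes, and the median was 1.28. Without Axin1 library 3 these were 3 of 7 genes and a median of 0.71. With all libraries, 27 of 29 genes of the other 3 roles had a log2 change under 0.5 in size, and the largest was 0.61. The 4 transport genes were Pltp, Mfsd2a, Apoe and Cd36, and the values of Apoe and Cd36 overlapped between the groups. In a longer list of 22 further tested transport genes, described below, 3 were above 1 in size and the median size was 0.35. Of the 15 macrophage markers, 10 were above 1 in size, and none passed the adjusted test.

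**Figure D1:**
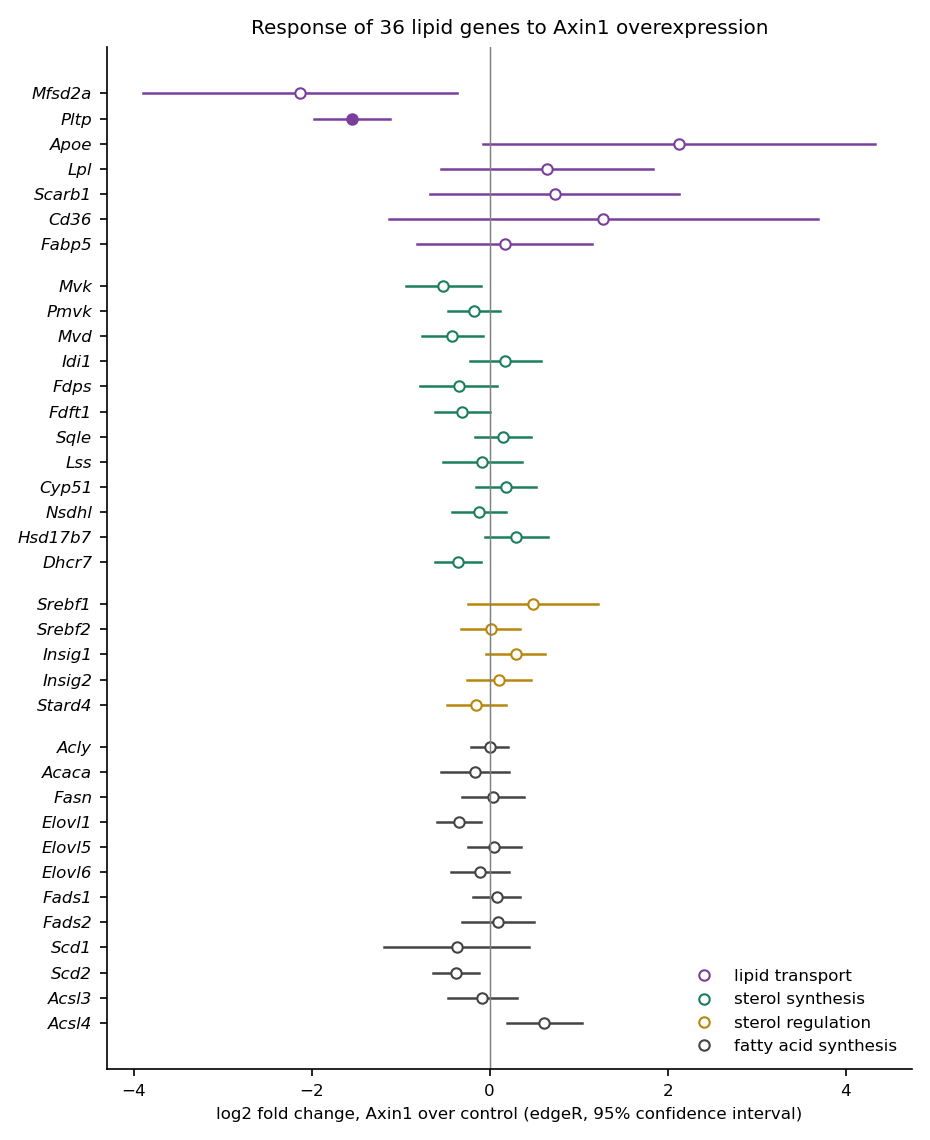
Fitted log2 fold change of each of the 36 tested lipid genes, Axin1 over control, with its 95% confidence interval from edgeR; positive values are higher in Axin1 cells, colours give the role, and the filled point passed an adjusted p of 0.05. Pltp is the single filled point at -1.55, transport genes spread from -2.13 to 2.13, and the enzymes and regulators lie between -0.52 and 0.61.

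Lipid transport held the one called gene. Pltp encodes the phospholipid transfer protein, a secreted protein that moves phospholipid between lipoproteins. It lay at 87.6, 115 and 140 CPM in Axin1 libraries 1, 2 and 3, against 279, 351 and 372 CPM in controls 1, 2 and 3. Every Axin1 library was below every control. The means were 114 ± 26.3 CPM in Axin1 cells and 334 ± 48.5 CPM in controls (SD, n = 3 each), 2.92-fold lower in Axin1 cells, with a log2 fold change of -1.55 (SE 0.19; edgeR adjusted p = 0.0277). The edgeR call was lost without Axin1 library 2 (adjusted p = 0.146) and without control 2 (adjusted p = 0.183), and the log2 value stayed between -1.72 and -1.39 over all 6 omissions of a library. Pltp overlaps Ctsa on the opposite strand by 311 bases in the GENCODE M21 annotation (build GRCm38), and the strand setting of the counting is not given in the sources used here. Ctsa, a lysosomal carboxypeptidase gene, lay at 321, 423 and 513 CPM in Axin1 libraries against 394, 429 and 428 CPM in controls, with a log2 change of 0.01 and an edgeR adjusted p of 0.990.

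Mfsd2a had the largest decrease in fitted value of the list without passing the adjusted threshold. It lay at 1.60, 6.05 and 10.02 CPM in Axin1 libraries, against 13.02, 22.1 and 42.1 CPM in controls. The groups did not overlap, and within each group the highest library was more than 3 times the lowest. The log2 change was -2.13 with a 95% confidence interval of -3.89 to -0.37, an unadjusted p of 0.025 and an edgeR adjusted p of 0.222. DESeq2 gave the same log2 change of -2.13 with an adjusted p of 0.0030, which passed the threshold. In deposited RPKM, which is per length, Mfsd2a lay at 2.72 ± 1.93 in Axin1 cells and 11.9 ± 7.03 in controls (SD, n = 3 each), far below Pltp at 86.8 ± 19.9 in Axin1 cells and 251 ± 40.8 in controls.

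Apoe, Lpl, Cd36 and Fabp5 had values that overlapped between the groups and differed widely among the Axin1 libraries. Apoe, the apolipoprotein that delivers lipid to receptors of the LDL receptor family, lay at 37.5, 253 and 420 CPM in Axin1 libraries 1, 2 and 3, against 42.7, 70.9 and 48.5 CPM in controls. Axin1 library 1 was below every control and libraries 2 and 3 were above every control. Its log2 change was 2.13 (95% confidence interval -0.08 to 4.34; edgeR adjusted p = 0.306), and without Axin1 library 1 it was 2.63 with an adjusted p of 0.0361. Cd36, a scavenger receptor that takes up fatty acids, lay at 3.19, 11.4 and 48.9 CPM in Axin1 libraries, against 6.38, 9.499 and 10.2 CPM in controls. One library, Axin1 3, set the sign of its fold: the log2 change was 1.28 with all libraries (edgeR adjusted p = 0.565) and -0.25 without that library. Lpl, the lipoprotein lipase that frees fatty acids at the vessel wall, lay at 34.7, 80.0 and 116 CPM in Axin1 libraries, against 31.6, 65.4 and 50.6 CPM in controls (log2 0.65, edgeR adjusted p = 0.559).

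Fabp5 and Fabp4 encode cytoplasmic fatty acid carriers. Fabp5 lay at 27.5, 61.0 and 68.9 CPM in Axin1 libraries, against 29.0, 48.8 and 62.4 CPM in controls (log2 0.17, edgeR adjusted p = 0.879), and its reads may be shared with its pseudogene Fabp5l2. Fabp4 did not reach the filter and was not tested: it had 10, 14 and 17 reads in Axin1 libraries, against 1, 7 and 6 reads in controls. Its Axin1 counts lay above every control count, at levels of at most 1.46 CPM.

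The values of Apoe, Lpl, Cd36 and Fabp5 rose from Axin1 library 1 to 3. Over all libraries, Apoe, Cd36 and Fabp5 were lowest in Axin1 library 1, and Lpl in control 1. The sum of the 15 macrophage markers rose in the same order within the Axin1 group. Of these 15 genes, 13 were lowest of all libraries in Axin1 library 1 and 15 were highest in Axin1 library 3, where Apoe, Lpl, Cd36 and Fabp5 were highest too. None of the 15 passed the test, and their median log2 change was 1.11. Blood cell markers varied in the Axin1 group too: 7 erythroid markers summed to 234, 1159 and 2501 CPM in Axin1 libraries 1, 2 and 3, against 658, 1663 and 2708 CPM in controls, and 8 megakaryocyte and platelet markers to 490, 1685 and 2203 CPM in Axin1 libraries, against 1234, 1183 and 1321 CPM in controls. The sums of 11 pericyte and mesenchyme markers were 114, 171 and 127 CPM in Axin1 libraries, against 54.9, 89.9 and 132 CPM in controls, and those of 8 neural markers 339, 329 and 349 CPM in Axin1 libraries, against 285, 338 and 432 CPM in controls. The part of RNA from these cells in the values of Apoe, Lpl, Cd36 and Fabp5 was not tested. Mfsd2a and Pltp, which were lower in Axin1 cells, were also lowest in Axin1 library 1 and highest within the Axin1 group in library 3.

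Scarb1, a receptor that takes up cholesterol from HDL, was the transport gene with the tightest Axin1 values. It lay at 209, 237 and 234 CPM in Axin1 libraries, against 66.9, 80.7 and 262 CPM in controls 1, 2 and 3. The 3 Axin1 libraries were alike, and control 3 lay above all of them while controls 1 and 2 lay far below. With all libraries the log2 change was 0.73 (SE 0.56; edgeR adjusted p = 0.570). Without control 3 it was 1.61 with an adjusted p of 0.00073. The same omission changed the call of Srebf1 and took the number of genes called over the whole table to 695, against 107 with all libraries.

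**Figure D2:**
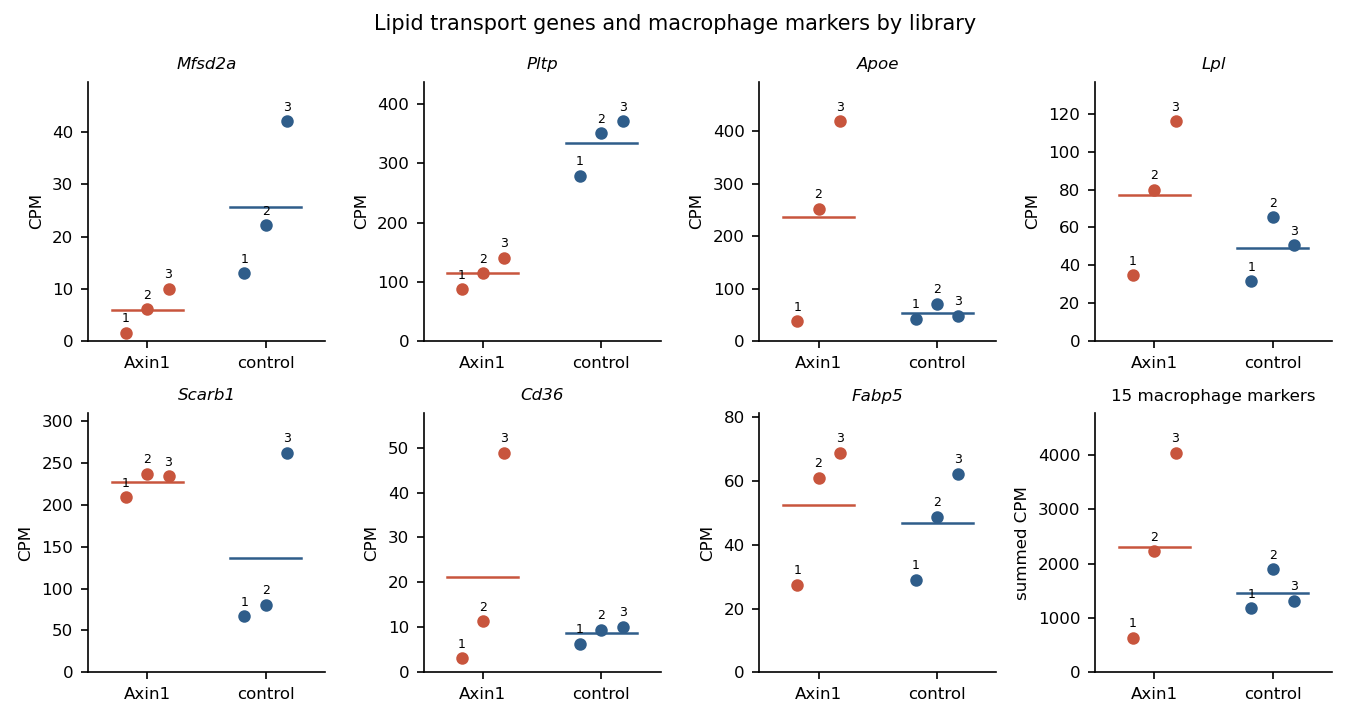
CPM of the 7 tested lipid transport genes and summed CPM of 15 macrophage markers in each library, with Axin1 libraries left and controls right; numbers give the library of each group and lines the group means. Pltp and Mfsd2a are separated between the groups, control 3 stands with the Axin1 libraries for Scarb1, and Axin1 library 3 is the highest point for Apoe, Lpl, Cd36, Fabp5 and the macrophage markers.

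Of the 12 tested sterol synthesis genes, none passed the adjusted test (smallest edgeR adjusted p 0.167), and 11 had a log2 change under 0.5 in size. Fold changes were negative for 8 and positive for 4, with a median log2 of -0.14 and a range of -0.52 to 0.30. At an unadjusted p under 0.05, 4 were lower and none higher: Mvk, Mvd, Fdft1 and Dhcr7 (33.3%, against 17.2% of all genes in either direction). Of these, Mvk, Mvd and Dhcr7 did not overlap between groups, 3 of 12 genes (25.0%, against 23.8% of all genes).

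In the mevalonate steps, Mvk, the mevalonate kinase gene, lay at 36.5, 42.7 and 30.7 CPM in Axin1 libraries, against 63.2, 43.1 and 51.5 CPM in controls. Its highest Axin1 library and lowest control were within 1 CPM of each other (log2 -0.52, SE 0.18, edgeR adjusted p = 0.206). Mvd, the diphosphomevalonate decarboxylase gene, lay at 39.3, 37.6 and 37.3 CPM in Axin1 libraries, against 60.2, 43.4 and 49.1 CPM in controls (log2 -0.42, edgeR adjusted p = 0.212). Pmvk, the kinase that acts between these enzymes, overlapped, at 63.3, 72.7 and 59.7 CPM in Axin1 libraries, against 79.7, 68.0 and 72.9 CPM in controls (log2 -0.17). Idi1, the isomerase of the next step, was at 40.5, 31.9 and 28.8 CPM in Axin1 libraries, against 32.3, 26.3 and 31.1 CPM in controls (log2 0.18). Hmgcs1, which makes HMG-CoA at the head of the pathway, is listed at 0 reads in every library, under 2 entries, so no level is given for it.

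Fdps, the farnesyl diphosphate synthase gene, was the most abundant sterol enzyme transcript per length, at 195 ± 31.0 RPKM in Axin1 cells and 245 ± 52.8 RPKM in controls (SD, n = 3 each). In CPM it lay at 117, 103 and 85.1 in Axin1 libraries, against 165, 107 and 117 in controls, and the groups overlapped (log2 -0.35, edgeR adjusted p = 0.387). Fdps overlaps Gm43738, a gene annotated as protein-coding, on the same strand by 197 bases, and the part of shared reads was not tested. Fdft1, the squalene synthase gene, lay at 101, 110 and 85.1 CPM in Axin1 libraries, against 133, 109 and 125 CPM in controls (log2 -0.31, edgeR adjusted p = 0.290). Fdft1 overlaps the cathepsin gene Ctsb on the opposite strand by 774 bases, and Ctsb lay at 627, 1183 and 2061 CPM in Axin1 libraries, against 585, 934 and 653 CPM in controls. The part of Ctsb reads in the Fdft1 counts was not tested.

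After squalene, the epoxidase gene Sqle was at 167, 155 and 126 CPM in Axin1 libraries, against 142, 118 and 144 CPM in controls (log2 0.15). Lss, the lanosterol synthase gene, had a log2 change of -0.08, Cyp51, the lanosterol demethylase gene, one of 0.18, and Nsdhl, which acts in the removal of methyl groups from the sterol ring, one of -0.12. Cyp51 overlaps Akap9, the gene of an anchoring protein for kinases, on the opposite strand by 166 bases. Akap9 lay at 117, 133 and 138 CPM in Axin1 libraries, against 62.5, 67.9 and 99.7 CPM in controls (log2 0.75, edgeR adjusted p = 0.0993), and the part of its reads in the Cyp51 counts was not tested. Hsd17b7, a ketoreductase of the same steps, lay at 46.9, 50.1 and 35.8 CPM in Axin1 libraries, against 35.5, 36.1 and 36.5 CPM in controls. Axin1 library 3 was among the controls (log2 0.30, edgeR adjusted p = 0.375). Dhcr7, the reductase of the last step to cholesterol, lay at 103, 105 and 87.9 CPM in Axin1 libraries, against 129, 121 and 130 CPM in controls. All 3 Axin1 values were below the controls, with a log2 change of -0.36 (SE 0.11) and the smallest adjusted p of the group (edgeR, 0.167).

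Ordered by RPKM in Axin1 cells, Fdps was followed by Idi1 (68.2 ± 12.0), Pmvk (67.3 ± 8.61) and Fdft1 (66.1 ± 9.22), which did not differ beyond their spread, and then by Sqle (54.2 ± 7.83; SD, n = 3 each). Dhcr7 (34.9) and Nsdhl (31.6) came next, Mvk, Mvd and Cyp51 lay between 21.5 and 22.0 RPKM, and Hsd17b7 (9.67) and Lss (9.14) were lowest. In controls Fdps was first as well, and Hsd17b7 was last at 7.79 RPKM. Summed over the 12 tested genes, sterol synthesis took 936, 891 and 750 CPM in Axin1 libraries, against 1048, 843 and 945 CPM in controls, and these sums overlapped.

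None of the 5 regulators of sterol synthesis passed the test, with log2 changes of -0.15 to 0.49. Srebf2 lay at 82.4, 69.5 and 70.8 CPM in Axin1 libraries, against 86.5, 68.1 and 66.6 CPM in controls, with a log2 change of 0.01 and an edgeR adjusted p of 0.985. The 95% confidence interval of its log2 change ran from -0.32 to 0.34. Srebf1 lay at 19.5, 25.1 and 22.2 CPM in Axin1 libraries, against 12.6, 10.4 and 24.7 CPM in controls. Control 3 was among the Axin1 values, the log2 change was 0.49 (edgeR adjusted p = 0.481), and without control 3 it was 0.94 with an adjusted p of 0.0416. Insig1 lay at 48.4, 45.7 and 54.5 CPM in Axin1 libraries, against 45.2, 41.3 and 34.9 CPM in controls. Its groups did not overlap, by a margin of under 1 CPM (log2 0.29, edgeR adjusted p = 0.353). Insig2 had a log2 change of 0.10, and Stard4, which carries cholesterol between membranes inside the cell, one of -0.15.

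**Figure D3:**
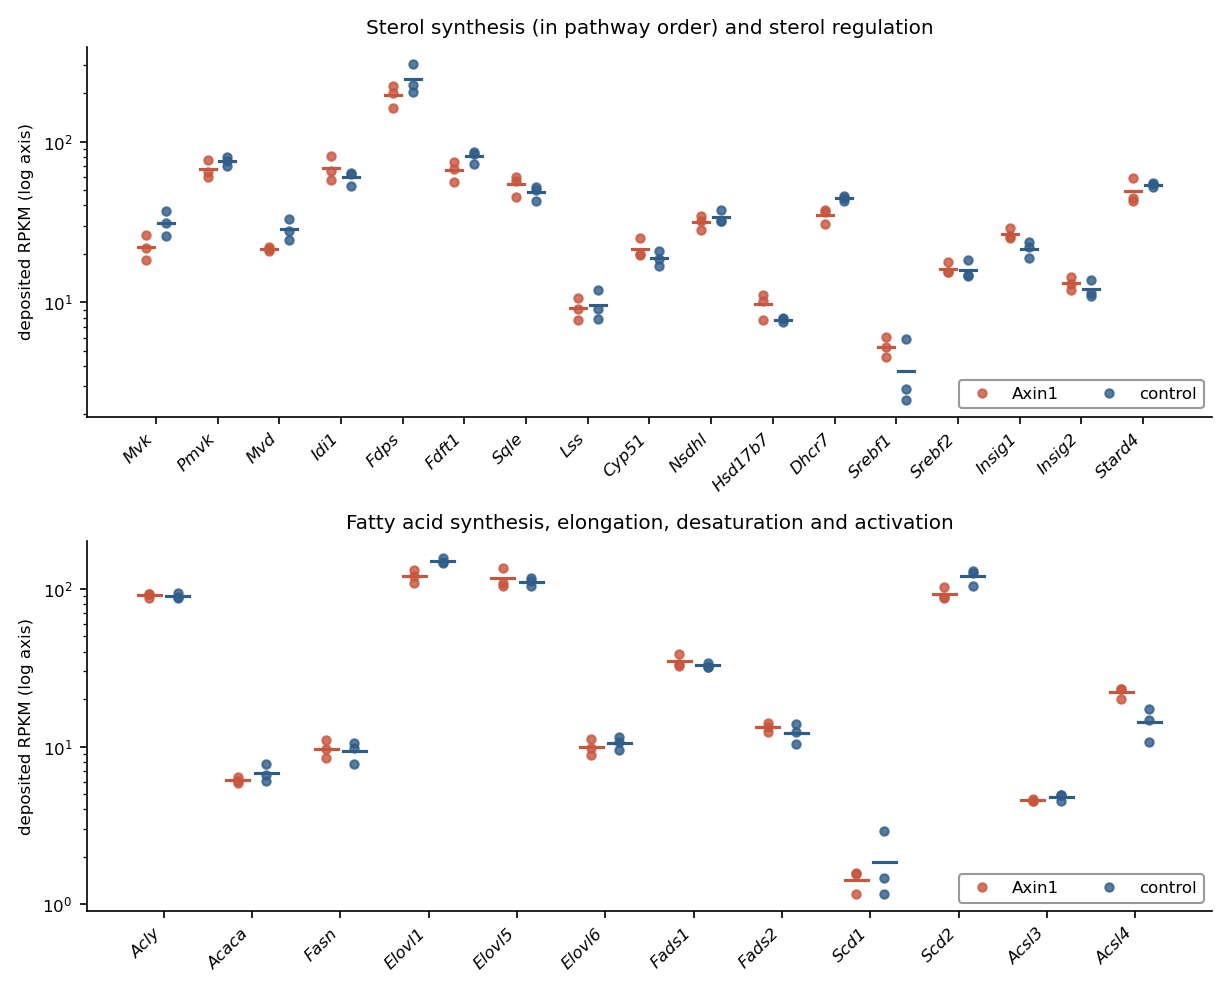
Deposited RPKM, on a log axis, of the tested genes of sterol synthesis and regulation (top) and of fatty acid synthesis (bottom) in each library; Axin1 points stand left of control points for each gene and bars are group means. Fdps is the highest sterol gene in both groups, Elovl1, Elovl5, Scd2 and Acly are the highest fatty acid genes, and most pairs of groups overlap.

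None of the 12 fatty acid genes passed the adjusted test (smallest adjusted p 0.145), and their median log2 change was -0.04, with a range of -0.38 to 0.61. At an unadjusted p under 0.05, Elovl1 and Scd2 were lower and Acsl4 was higher (25.0%, against 17.2% of all genes). These 3 were also the genes whose groups did not overlap (25.0%, against 23.8% of all genes). Acly, which makes cytosolic acetyl-CoA, lay at 414, 405 and 389 CPM in Axin1 libraries, against 403, 390 and 416 CPM in controls, with a log2 change of 0.00 and a 95% confidence interval of -0.21 to 0.21. Acaca, the carboxylase that makes malonyl-CoA, had a log2 change of -0.16, and Fasn, the fatty acid synthase gene, one of 0.04.

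Among the elongases, Elovl1, which acts on saturated very long chains, lay at 201, 213 and 195 CPM in Axin1 libraries, against 285, 247 and 242 CPM in controls. All Axin1 values were below all control values (log2 -0.35, SE 0.11, edgeR adjusted p = 0.159). Elovl5 and Elovl6, which act on polyunsaturated and on long saturated chains, had log2 changes of 0.05 and -0.11. The desaturases of polyunsaturated chains, Fads1 and Fads2, had log2 changes of 0.08 and 0.09. The stearoyl-CoA desaturases put the first double bond into saturated chains. Scd2 lay at 462, 528 and 469 CPM in Axin1 libraries, against 563, 660 and 675 CPM in controls, without overlap (log2 -0.38, SE 0.11, edgeR adjusted p = 0.145). Its paralog Scd1 was far less abundant per length, at 1.44 ± 0.24 RPKM in Axin1 cells and 1.85 ± 0.94 RPKM in controls, against 93.2 ± 8.32 RPKM in Axin1 cells and 120 ± 13.6 RPKM in controls for Scd2 (SD, n = 3 each).

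The acyl-CoA synthetases activate free fatty acids. Acsl4, which prefers arachidonic acid, lay at 118, 98.7 and 119 CPM in Axin1 libraries, against 90.2, 74.8 and 54.1 CPM in controls. All 3 Axin1 values were above the controls, and its log2 change of 0.61 (95% confidence interval 0.19 to 1.04, edgeR adjusted p = 0.155) was the largest in size among the 29 tested enzymes and regulators of the 38 genes. Acsl3 lay between 14.4 and 16.4 CPM in all libraries of both groups (log2 -0.08, edgeR adjusted p = 0.850). Summed over the 12 genes, fatty acid synthesis took 1940, 1862 and 1770 CPM in Axin1 libraries, against 2011, 1998 and 2015 CPM in controls. These sums did not overlap, with means of 1857 ± 85.1 CPM in Axin1 cells and 2008 ± 8.89 CPM in controls (SD, n = 3 each). Scd2 and Elovl1 are among the most abundant genes in the sum. Mean CPM was 486 in Axin1 cells and 633 in controls for Scd2, and 203 in Axin1 cells and 258 in controls for Elovl1. The difference between the sums does not stand for the genes as a group: 5 of the 12 had a positive log2 change, and the median was -0.04.

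The spread between libraries differed with the role of the genes. The coefficient of variation (CV, SD over mean) of CPM had a median of 53.1% in Axin1 libraries and 34.5% in controls for the 7 transport genes. It was 14.4% in Axin1 libraries and 10.9% in controls for sterol synthesis, 10.9% in Axin1 libraries and 12.8% in controls for the regulators, and 8.78% in Axin1 libraries and 10.4% in controls for fatty acid genes. Over all tested genes the medians were 14.9% in Axin1 libraries and 15.2% in controls. The SE of the log2 change followed, with a median of 0.56 for transport genes and 0.15 for sterol synthesis and fatty acid genes, so a change of a given size was less detectable in transport.

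**Figure D4:**
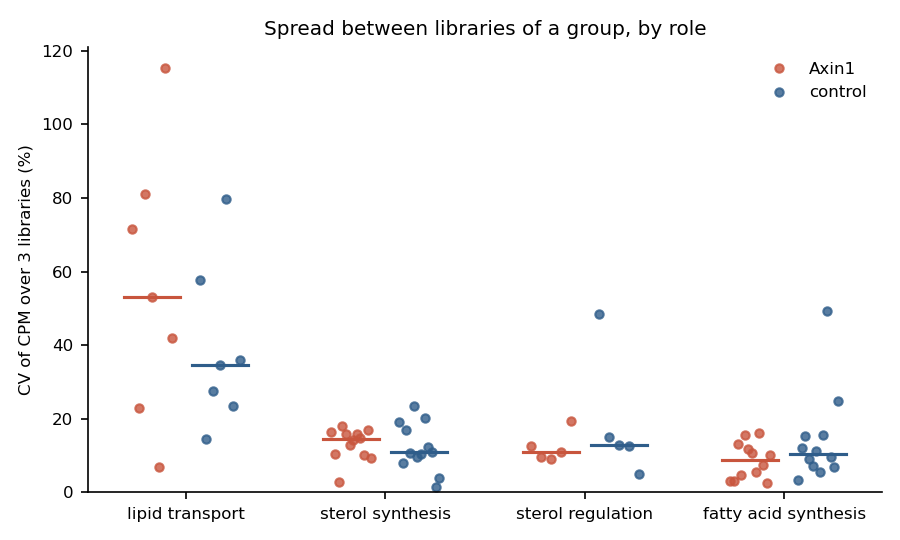
Coefficient of variation of CPM over the 3 libraries of a group, one point per gene, with Axin1 libraries left of controls in each role; lines are medians. Transport genes have medians of 53.1% in Axin1 libraries and 34.5% in controls, and the medians of the other roles lie between 8.78% and 14.4%.

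Further genes of the same pathways were taken from 3 longer lists, and none of them passed the adjusted test: 0 of 18 tested sterol genes (median log2 -0.10), 0 of 23 fatty acid genes (-0.06) and 0 of 22 transport genes (0.00). At an unadjusted p under 0.05 there were 3 lower sterol genes, 1 lower and 2 higher fatty acid genes, and 2 lower and 4 higher transport genes (17.2% of all genes). The 3 genes with the smallest p of each list are given next.

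In transport these were genes around the lipase Lpl. Gpihbp1, which holds the lipase on the capillary endothelium, lay at 12.0, 12.7 and 10.9 CPM in Axin1 libraries, against 6.99, 7.12 and 5.51 CPM in controls (log2 0.85, SE 0.22, edgeR adjusted p = 0.113). Angptl4, an inhibitor of the lipase, lay at 11.9, 17.1 and 13.8 CPM in Axin1 libraries, against 4.46, 4.06 and 9.64 CPM in controls (log2 1.24, SE 0.35, edgeR adjusted p = 0.138). Lmf1, needed for the lipase to mature in the endoplasmic reticulum, lay at 52.9, 50.9 and 47.1 CPM in Axin1 libraries, against 66.7, 60.6 and 73.4 CPM in controls (log2 -0.41, SE 0.13, edgeR adjusted p = 0.156). Gpihbp1 and Angptl4 lay above the controls and Lmf1 below, without overlap, and these genes were picked by p. In the whole list 8 of 22 genes did not overlap (36.4%, against 23.8% of all genes).

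In the sterol list, Lipa, the lysosomal lipase that releases cholesterol from its esters, lay at 164, 188 and 218 CPM in Axin1 libraries, against 253, 277 and 261 CPM in controls (log2 -0.47, edgeR adjusted p = 0.114). Ebp, the sterol isomerase gene, lay at 49.8, 58.7 and 52.6 CPM in Axin1 libraries, against 73.6, 69.7 and 62.9 CPM in controls (log2 -0.36, edgeR adjusted p = 0.203). 0610007P14Rik, the older symbol of Erg28, lay at 84.5, 93.6 and 78.2 CPM in Axin1 libraries, against 118, 107 and 94.6 CPM in controls (log2 -0.32, edgeR adjusted p = 0.253). All 3 had Axin1 values below the controls without overlap, and in the whole list 4 of 18 genes did not overlap (22.2%, against 23.8% of all genes).

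In the fatty acid list, Slc25a1, the mitochondrial carrier that exports citrate for Acly, lay at 6.31, 6.19 and 6.39 CPM in Axin1 libraries, against 11.54, 11.0 and 10.9 CPM in controls (log2 -0.83, SE 0.21, edgeR adjusted p = 0.106). Ptplb, the older symbol of Hacd2, a dehydratase of chain elongation, lay at 7.90, 8.81 and 7.86 CPM in Axin1 libraries, against 4.37, 4.52 and 5.23 CPM in controls (log2 0.80, edgeR adjusted p = 0.155). Both had no overlap between groups, like 6 of 23 genes of the whole list (26.1%, against 23.8% of all genes). Me1, the cytosolic malic enzyme gene that makes NADPH, was at 1.60, 1.31 and 1.21 CPM in Axin1 libraries, against 0.17, 0.61 and 0.64 CPM in controls (log2 1.5, edgeR adjusted p = 0.254).

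**Figure D5:**
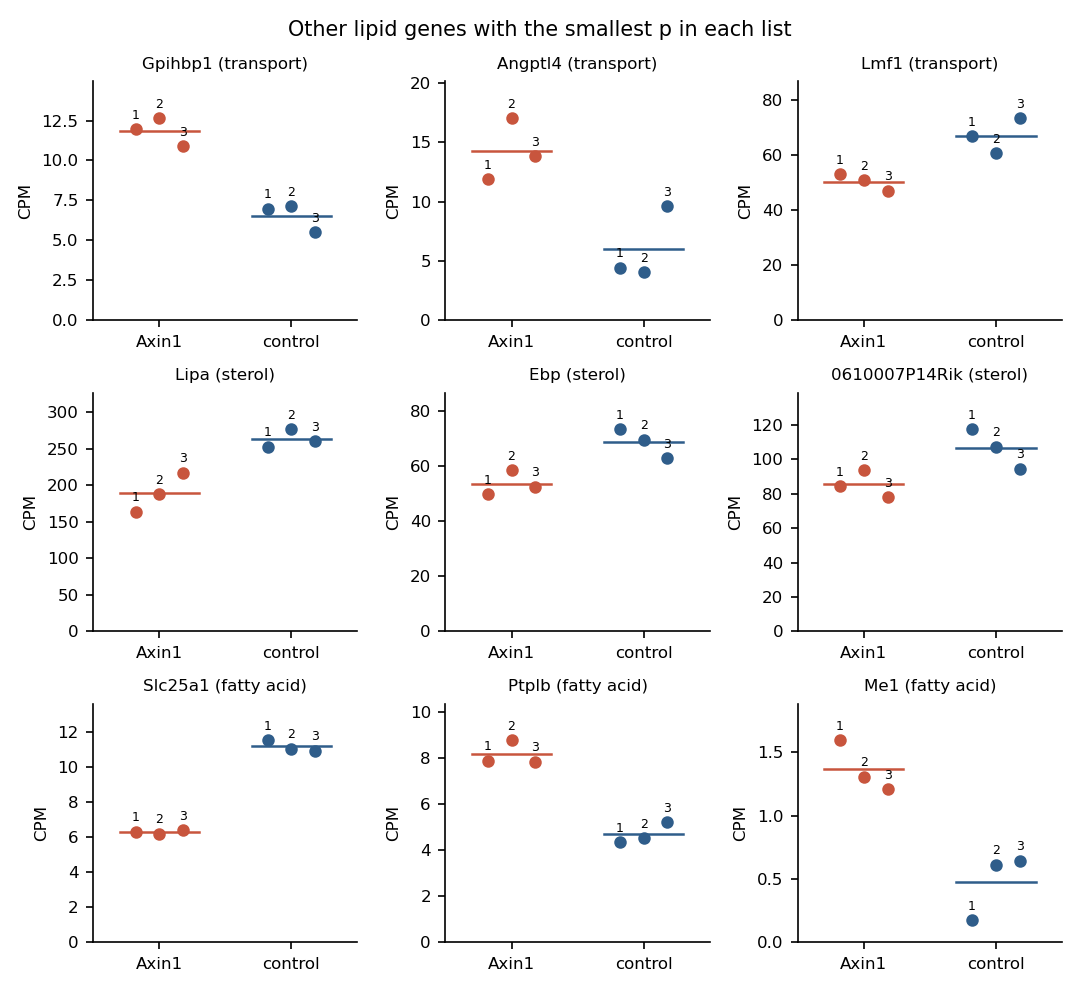
CPM of the 3 genes with the smallest p in each longer list of transport, sterol and fatty acid genes, with Axin1 libraries left and controls right; numbers give the library of each group and lines the group means. The 9 genes were picked by p, so the separation of their Axin1 and control points follows from the choice, and none passed an adjusted p of 0.05.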

How the data were processed

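RNA-seq of 6 libraries was analysed, 3 per group. Read counts and RPKM values per gene entry were computed and deposited by the authors, per the file headers, in a separate table for every library. Bowtie and mm9 are named, without versions, in the submitters' processing notes. Neither the counting program nor its strand setting is stated in the labels or headers. In GENCODE M21, exons of 7 of the 38 genes overlap those of another protein-coding gene: Pltp, Fdft1, Cyp51, Fdps, Elovl1, Srebf1 and Acsl3. For Fdps and Acsl3 the other gene lies on the same strand. The part of shared reads in these counts was not tested. Each deposited RPKM equalled the count times a factor of the gene and a factor of the library within 1% for at least 86.8% of entries with 10 or more reads, so it is used for levels between genes. Groups came from the labels. Of the 22958 entries, 794 repeat a symbol and took at most 0.0867% of reads, and 726 of these are at 0.

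The counts were tested with edgeR 4.0.16 (R 4.3.3): filterByExpr (minimum count 10, minimum total 15), TMM factors (0.975 to 1.02), and a robust quasi-likelihood fit on 12661 genes, with Benjamini-Hochberg adjustment over all of them and a threshold of 0.05. The common biological coefficient of variation was 25.3%. CPM uses the TMM-scaled library totals. A fold between group means is the ratio of mean CPM. No 2 libraries agreed within sampling noise (chi-square per degree of freedom 16.3 to 60.4). DESeq2 1.42.0 and limma 3.58.1 (on log2(RPKM + 1) or log2(RPKM + 0.1)), other normalizations and filters, omission of each library and fits with the replicate number as a block were alternatives. The fit was tested on simulated counts.

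The members and gene lists were chosen with earlier results of these data known. All 38 members are named, and of each longer list the 3 genes with the smallest p, since none passed. All 176 genes of the lists have an entry, 7 of them under an older symbol. Promoters are RefSeq's on GRCm38.p6, matched by symbol. No coordinates were converted from mm9.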

Additional observations from a re-analysis of the deposited data

How the results depend on the processing

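Over 16 alternatives, 26 of the 36 tested lipid genes kept the sign of their fold change in every fit. The other 10 changed sign in 26 values among them. The number of genes called over the whole table, 107 with edgeR, was 720 with DESeq2, 197 with no filter, 51 without robust fitting and 1500 with a replicate block from the title numbers. Leaving out 1 library gave 0 to 695 called genes: 0 without Axin1 library 2 or control 2, where edgeR still had 1733 and 1539 genes at an unadjusted p under 0.05, and 695 without control 3. The number of lipid genes called was 1 (Pltp) with all libraries, 2 with DESeq2 and 2 with a block from the description numbers (Mfsd2a and Pltp both times), and 4 with the title block (Mfsd2a, Pltp, Scarb1, Srebf1). Leaving out 1 library gave 0 to 3.

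Replicate numbers were not taken as pairs, because no label states that they mark litters. Deviations of libraries with the same description number correlated at 0.23, 0.15 and -0.02 for replicates 1, 2 and 3. Replicates 1 and 2 also share a title number between the groups, and replicate 3 does not. Crossed, Axin1 library 1 with control 2 correlated at -0.25, and Axin1 library 2 with control 1 at -0.22. Axin1 library 3, which shares no number with control 2, correlated with it at 0.17, and with control 1 at -0.11. Control 3 correlated at -0.03 with Axin1 library 1 and at 0.09 with Axin1 library 2. Deviations were taken from the mean of each group, so these correlations depend on each other. Whether these libraries are paired was not tested. The description block called 105 genes, and the 2 shared title numbers left 4 libraries for the title block. Log2 values that changed sign were Acly at 0.0115 (library totals), 0.006 (stricter filter), 0.0148 and 0.015 (limma, pseudocounts 1 and 0.1) and 0.0432 (title block), and, with the title block, Cd36 at -0.313, Lss at 0.178, Scd1 at 0.231 and Srebf2 at -0.0256. With 1 library left out, ranges were Acly -0.0255 to 0.0232, Cd36 -0.251 to 1.78, Elovl5 -0.0845 to 0.124, Fabp5 -0.086 to 0.474, Fads1 -0.0138 to 0.134, Fads2 -0.0174 to 0.209, Fasn -0.0842 to 0.122, Lss -0.212 to 0.0668, Scd1 -0.605 to 0.0922 and Srebf2 -0.0742 to 0.136. The cause was not tested. The median of the transport genes, 0.65 with all libraries, was -0.08 without Axin1 library 3, and that of the fatty acid genes, -0.04, was 0.05 with the title block.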

Other observations

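Apod, the gene of an apolipoprotein that binds small lipids, lay in the longer transport list outside the rule for named genes and was picked after its values were seen. It was at 4.47, 17.2 and 30.8 CPM in Axin1 libraries, against 48.6, 77.0 and 104 CPM in controls, and the groups did not overlap. Its log2 change of -2.13 (SE 0.71, edgeR adjusted p = 0.226) was as large as that of Mfsd2a. In both genes library 1 was the lowest of its group and library 3 the highest. This order was not particular to them. Pltp, Cd36 and Fabp5 had it in both groups too, as did the sums of the 7 tested transport genes and of 7 erythroid markers.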
